A study of Mus musculus with 11 samples.

Results

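The sodium pump, Na,K-ATPase, is built from a catalytic alpha subunit, a glycosylated beta subunit that brings the alpha subunit to the plasma membrane, and a small single-span FXYD protein that tunes its transport. It moves sodium out of the cell and potassium into it, and the gradients it maintains feed the membrane potential and the sodium-coupled transporters of excitable cells, islet endocrine cells among them. Bulk RNA-sequencing of whole pancreatic islets was examined here for 9 genes of this machinery, which were *Fxyd6*, its relatives *Fxyd1*, *Fxyd2*, *Fxyd3*, *Fxyd5* and *Fxyd7*, and the beta subunit genes *Atp1b1*, *Atp1b2* and *Atp1b3*. These are 9 of the 19329 gene IDs in the deposited expression table, and all 9 were found there by their Ensembl gene IDs. *Fxyd6* was picked because it differed between the genotypes in these same libraries, so its values are given as a description with no test, and the other members were added as its relatives.

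Islets came from untreated male mice on regular chow, 14 weeks old, and gave 6 wild-type libraries and 5 libraries of animals with the P33T point mutation on both alleles of PDX1 (PDX1 P33T/P33T, hereafter P33T), the homeodomain transcription factor of pancreas development and of beta cells. The mutation was introduced in C57BL/6N embryos with CRISPR-Cas9 and is carried by every cell of the animal, and both genotypes had isolated islets that were kept in culture before RNA was taken. A figure legend of the study reads as though islets of several mice were pooled for each replicate, so n and SD refer to libraries. The libraries held 19311937 to 37094286 counted reads in wild-type and 23731684 to 36865206 in P33T islets. Whole islets mix several cell types, and in such bulk samples fewer cells of a type and less RNA per cell cannot be told apart.

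Values are FPKM, the reads of a gene per kilobase of its length and scaled to the library's total of reads. In the deposited table nearly every wild-type value is attached to the ID of a gene it does not belong to, and of 1711 genes whose wild-type reads could be looked up in the study's supplementary read counts, 13 were on their own row. The P33T values stand on their own rows. Wild-type values are therefore given for 6 of the 9 members, *Fxyd6*, *Fxyd3*, *Fxyd5* and *Atp1b1* by their supplementary reads and *Atp1b2* and *Atp1b3* by gene length and level, and the remaining 3, *Fxyd1*, *Fxyd2* and *Fxyd7*, have P33T values only. The supplementary counts held here are the top of a list sorted by the p of the genotype difference, so members found in them were more likely to differ than members that were not.

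The hormone genes marked the P33T samples as islets. Their wild-type rows were found by gene length and level, within 4-fold of the P33T mean. Similar levels in wild-type islets were thus favoured by the choice of row and are no separate check. The insulin genes *Ins1* and *Ins2* averaged 77249 and 136382 FPKM in wild-type and 83478 and 152890 FPKM in P33T islets, far above glucagon (*Gcg*, 8778 and 10618 FPKM) and somatostatin (*Sst*, 7323 and 5720 FPKM). *Pdx1* itself averaged 79.0 ± 0.881 FPKM (SD, n = 5) in P33T islets, and its wild-type row was not identified. Wild-type replicate 3 and P33T replicate 2 stood apart from the other libraries of their genotypes. The summed FPKM of 4 endothelial markers (*Pecam1*, *Cdh5*, *Kdr* and *Flt1*) was 163 in wild-type replicate 3 against 31.3 to 69.7 in the other wild-type libraries, and 24.5 in P33T replicate 2 against 38.9 to 57.7 in the other P33T libraries. P33T replicates 1 and 4, and likewise 3 and 5, were closer to each other than any other P33T pair. Their median chi-square per gene was 1.17 and 1.16, where the other P33T pairs had 2.51 to 10.9. A repeat of the same library would give 0.455, so they were kept as separate libraries. These values do not show whether they came from different animals.

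In the mouse genome *Fxyd5*, *Fxyd7*, *Fxyd1* and *Fxyd3* stand in this order on the minus strand of chromosome 7, while *Fxyd6* and *Fxyd2* are neighbours on the plus strand of chromosome 9. *Atp1b1* lies on chromosome 1, *Atp1b2* on chromosome 11 and *Atp1b3* on chromosome 9. PDX1 belongs to the homeodomain factors, whose core recognition letters are TAAT, and the stretch before the start of a gene is shown for the most abundant FXYD gene and for the beta subunit gene whose estimate was highest. The 250 bases before each start were taken from RefSeq on GRCm38.p6, where entries were found for 6 of the 9 members. They are printed 5′ to 3′ on the strand of the gene, in lower case, with TAAT and its reverse complement ATTA in capitals.
Fxyd6, chr9:45369935-45370184, plus strand: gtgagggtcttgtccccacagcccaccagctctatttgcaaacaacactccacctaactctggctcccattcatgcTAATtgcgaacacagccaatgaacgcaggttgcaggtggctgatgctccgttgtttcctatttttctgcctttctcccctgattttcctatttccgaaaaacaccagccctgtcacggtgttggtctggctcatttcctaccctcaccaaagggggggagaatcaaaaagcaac
Atp1b1, chr1:164458356-164458605, minus strand: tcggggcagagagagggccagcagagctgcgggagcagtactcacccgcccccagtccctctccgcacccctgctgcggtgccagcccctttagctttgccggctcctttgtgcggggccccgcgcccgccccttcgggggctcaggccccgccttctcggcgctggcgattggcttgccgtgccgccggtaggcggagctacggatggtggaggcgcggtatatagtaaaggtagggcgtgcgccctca
The *Fxyd6* stretch held these letters 1 time, starting at position -174 counted back from the gene start, and the *Atp1b1* stretch, 70.4% G and C, held 0 copies. Of 32851 mouse promoter stretches of the same length, 54.9% held TAAT or ATTA at least once, so the match in *Fxyd6* is a description of the letters there and no more.

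*Fxyd6*, which encodes phosphohippolin, an FXYD protein best known from brain, was by far the most abundant FXYD gene of these islets and was higher in P33T than in wild-type islets. The wild-type libraries, in the order of their replicate numbers, had 54.4, 59.9, 49.3, 49.0, 49.9 and 45.1 FPKM. The P33T libraries had 68.1, 81.4, 67.6, 67.0 and 65.5 FPKM. The lowest P33T library was above the highest wild-type library, and the group means, each with its SD over libraries, were 51.3 ± 5.15 FPKM (n = 6) and 69.9 ± 6.51 FPKM (n = 5), a ratio of 1.36. On the scale of log2(FPKM + 0.1) the difference was 0.45 with a standard error of 0.09, both from the contrast that chose the gene. The ratio was under the 1.5-fold change required for calls further on. Among the 4727 genes compared, the whole P33T group stood over the whole wild-type group in 2.31%, and the reverse in 2.54%, shares from which nothing is read for *Fxyd6* because this contrast chose it. In either direction, groups did not overlap in 12.7% of the genes placed by supplementary reads, as *Fxyd6* was, and in 0.524% of those placed by length and level. Both shares were shaped by how the rows were found, the first by a list sorted by p and the second by the limit on level. Between 3914 and 9913 reads stood behind each value, so counting error was small beside the spread between libraries.

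The P33T libraries other than replicate 2 sat within a narrow band for *Fxyd6*, from 65.5 to 68.1 FPKM. Without wild-type replicate 3 and P33T replicate 2 the means and SDs were 51.7 ± 5.66 FPKM (n = 5) and 67.1 ± 1.15 FPKM (n = 4), a ratio of 1.30. In P33T islets 498 of the 19329 gene IDs had a higher mean than *Fxyd6*, which placed it at the 97.4th percentile of the gene IDs with a value.

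**Figure D1:**
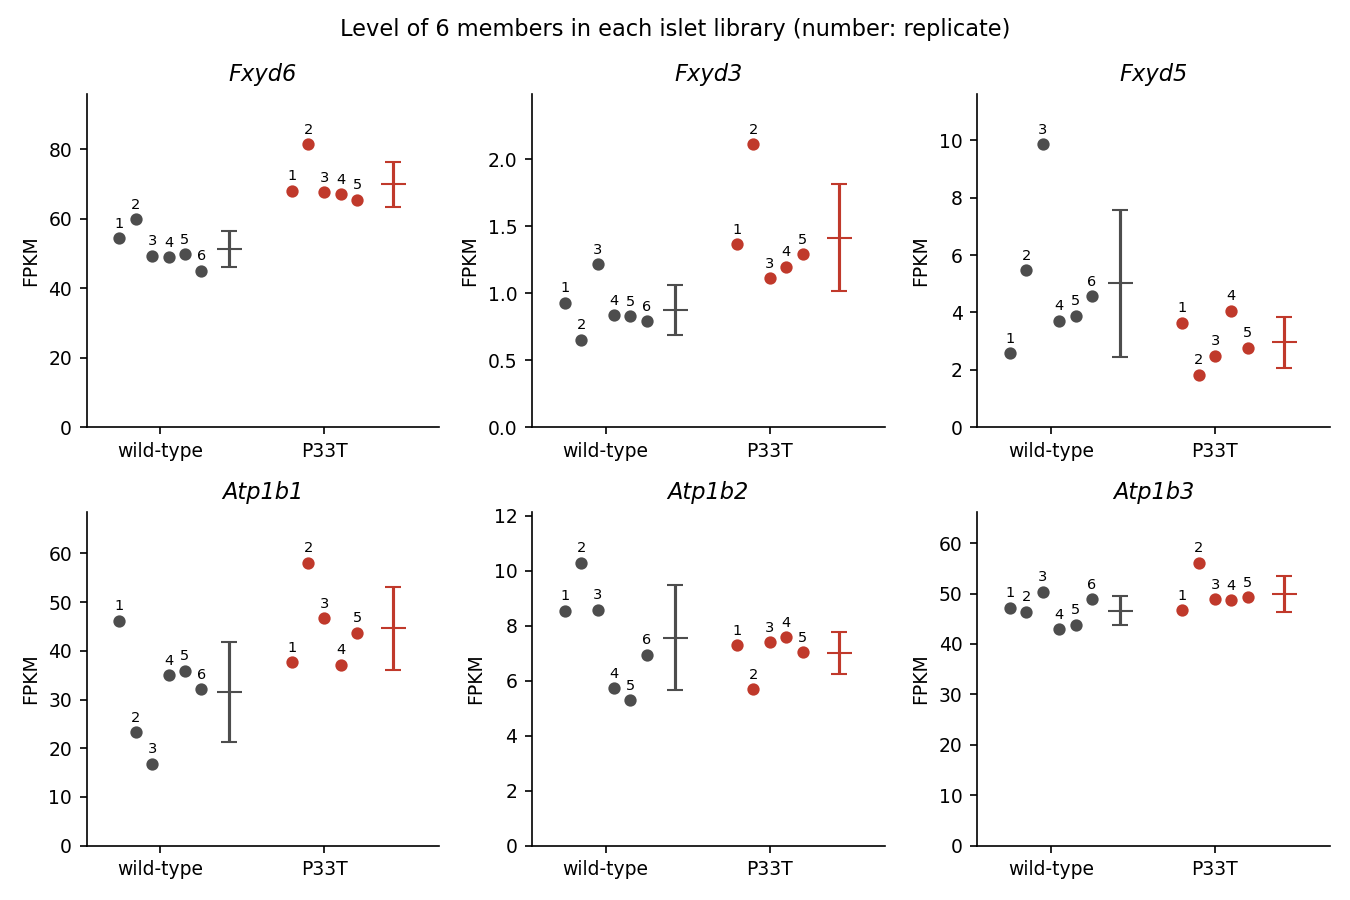
Level of the 6 members with values in both genotypes, in FPKM on axes that start at 0, for each of the 6 wild-type (grey) and 5 P33T (red) libraries, with the replicate number above each point and the mean ± SD beside the points. For *Fxyd6* every red point lies above every grey point, whereas for the other 5 members the groups overlap.

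Of the other FXYD genes, *Fxyd5* and *Fxyd3* were measured in both genotypes at a small part of the *Fxyd6* level. *Fxyd3* encodes a FXYD protein of epithelia and of several tumours. It had 0.929, 0.653, 1.22, 0.834, 0.828 and 0.789 FPKM in the wild-type libraries and 1.36, 2.11, 1.11, 1.20 and 1.29 FPKM in the P33T libraries. Only wild-type replicate 3 reached into the P33T range, and replicate 2 was the highest P33T library. The estimate for *Fxyd3* was 0.62 higher in P33T islets on the log2 scale with a standard error of 0.17, at a limma adjusted p of 0.499, and did not pass the test. Without wild-type replicate 3 and P33T replicate 2 the log2 difference of *Fxyd3* was 0.57 with a standard error of 0.11, at a limma adjusted p of 0.344. The values rest on 70 to 243 reads per library. *Lgi4*, on the other strand, overlaps *Fxyd3*, and at 0.0827 to 0.166 FPKM in P33T islets it was lower than *Fxyd3* in these libraries.

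*Fxyd5* encodes dysadherin, a FXYD protein known to weaken cell adhesion and found in several non-endocrine cell types. It had 2.58, 5.48, 9.86, 3.72, 3.89 and 4.57 FPKM in wild-type and 3.64, 1.83, 2.49, 4.06 and 2.77 FPKM in P33T islets. The ranges overlapped widely, with the highest value in wild-type replicate 3 and the lowest in P33T replicate 2. The log2 difference of *Fxyd5* was -0.67 with a standard error of 0.30 (limma adjusted p = 0.566), and it shrank to -0.30 with a standard error of 0.21 (limma adjusted p = 1) without these 2 libraries.

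The same 2 libraries were the extremes of the endothelial and immune marker sums. The 4 endothelial markers summed to 163 FPKM in wild-type replicate 3 and to 24.5 FPKM in P33T replicate 2, the highest and the lowest of the 11 libraries. The 4 immune markers with wild-type values (*Ptprc*, *Cd68*, *Adgre1* and *Cd74*) summed to 375 and 75.1 FPKM there, again the highest and the lowest, within group ranges of 104 to 375 FPKM in wild-type and 75.1 to 122 FPKM in P33T islets. *Cd74* dominated this sum, at 324 FPKM in wild-type replicate 3. *Cd74* and *Cd68* were highest in that library. *Ptprc* and *Adgre1* were highest in wild-type replicate 2, at 0.501 and 5.99 FPKM, against 0.427 and 5.13 FPKM in wild-type replicate 3. None of the endothelial and immune markers in the table was listed at 0 in all P33T libraries. Of the 8 with wild-type values, 0 were called between the genotypes by the rule given further on. Of all 4727 genes compared, 0.0846% were called, so nothing is read from this count. Endocrine markers moved with these libraries in part. Wild-type replicate 3 had the highest sums of the delta cell (10589 FPKM) and PP cell (24082 FPKM) markers. P33T replicate 2, at 5172 and 12030 FPKM, had the lowest sum of neither. The mean log2 level of the beta cell markers was lowest in wild-type replicate 3 (12.82) and highest in P33T replicate 2 (13.52). Their sum was also highest in P33T replicate 2 (334242 FPKM). It was lowest in wild-type replicate 5 (200621 FPKM), and wild-type replicate 3 had 227946 FPKM. P33T replicate 2 also had 56.1 FPKM of acinar markers, against 3.29 to 9.80 FPKM in the other P33T libraries, and wild-type rows were not identified for that list. The part of these cells in the values of *Fxyd5*, and of *Atp1b1* given further on, was not tested.

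**Figure D2:**
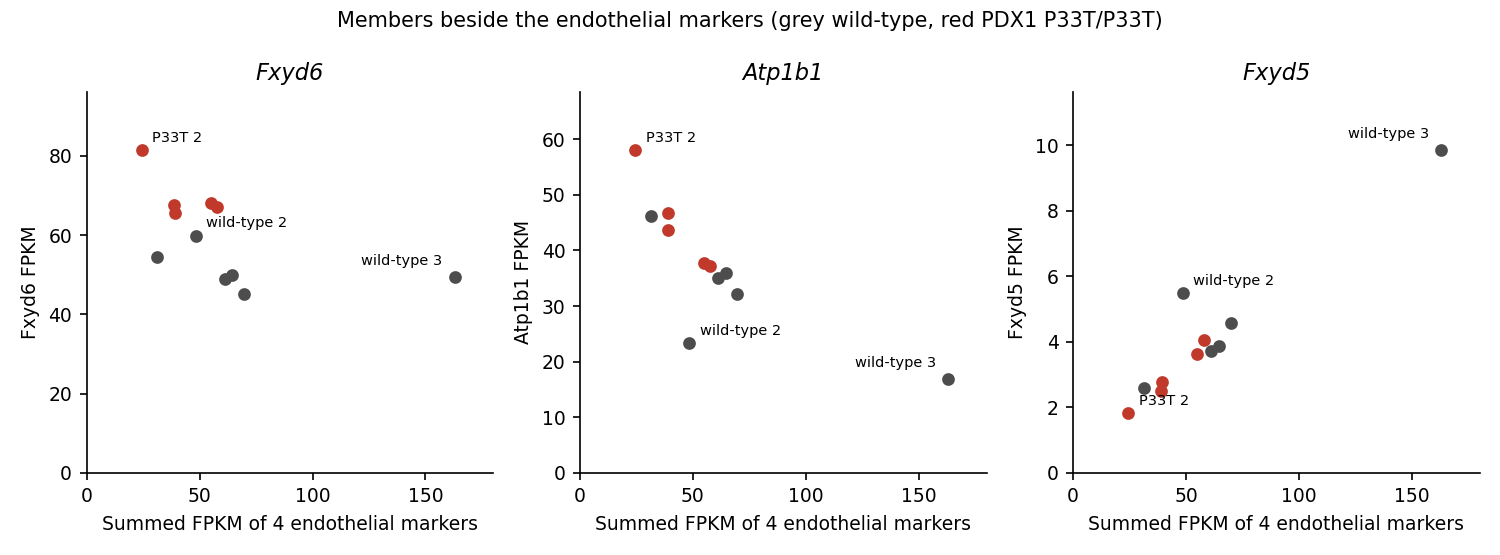
FPKM of *Fxyd6*, *Atp1b1* and *Fxyd5* on the y axes against the summed FPKM of the 4 endothelial markers on the x axis, 1 point per library (grey wild-type, red P33T). Wild-type replicate 3, at 163 FPKM of markers, has the lowest *Atp1b1* and the highest *Fxyd5*, and P33T replicate 2, at 24.5 FPKM, has the highest *Atp1b1* and the lowest *Fxyd5*.

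*Fxyd1*, *Fxyd2* and *Fxyd7* were near the limit of detection in P33T islets. *Fxyd7*, known from brain, had 0.483, 0.365, 0.268, 0.0586 and 0.509 FPKM, which are 1 to 13 reads per library. *Fxyd1*, which encodes phospholemman of heart and skeletal muscle, had 0.153, 0.173, 0.184, 0.111 and 0.199 FPKM from 6 to 16 reads. *Fxyd2*, the gamma subunit of the kidney pump, was listed at 0 in replicate 2 and reached 0.195 FPKM in replicate 1, with 0 to 21 reads. At this depth these values say that few transcripts were sampled, and no comparison between the genotypes was made for the 3 genes. *Fxyd6* accounted for 92.1% to 94.8% of the summed FPKM of the 6 FXYD genes in the P33T libraries. This share depends on the gene length behind FPKM. It is smaller with the median coding transcript as the length, at mean levels of 161 FPKM for *Fxyd6*, 15.6 for *Fxyd3* and 15.4 for *Fxyd5*.

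Among the beta subunits, *Atp1b3* and *Atp1b1* were the abundant genes. *Atp1b1* encodes the most widespread beta subunit. Its wild-type values were 46.2, 23.3, 16.8, 35.0, 35.9 and 32.2 FPKM and its P33T values 37.7, 58.1, 46.7, 37.2 and 43.7 FPKM. The groups overlapped, since wild-type replicate 1 stood higher than 3 of the 5 P33T libraries. The means and SDs were 31.6 ± 10.3 FPKM (n = 6) and 44.7 ± 8.50 FPKM (n = 5). The log2 difference of *Atp1b1* was 0.55 with a standard error of 0.23, at a limma adjusted p of 0.523. Its lowest library was wild-type replicate 3 and its highest P33T replicate 2, the extremes of the endothelial and immune marker sums, and without these 2 libraries the difference was 0.28 with a standard error of 0.17 (limma adjusted p = 1). *Nme7*, which overlaps the gene on the other strand, had 0.718 to 1.25 FPKM in P33T islets, far below *Atp1b1*.

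*Atp1b3*, another widely expressed beta subunit gene, was the least variable member. It had 47.1, 46.4, 50.4, 42.9, 43.9 and 48.9 FPKM in wild-type and 46.7, 56.1, 48.9, 48.7 and 49.3 FPKM in P33T islets. These ranges overlapped, and the coefficient of variation was 6.12% and 7.16%. The log2 difference was 0.10 with a standard error of 0.08 (limma adjusted p = 1). These wild-type values rest on a row chosen by gene length and level after the data were seen. Of the candidate rows of that length, the one nearest to the P33T mean was taken. A small difference was thus favoured by the choice, and the p is no test of *Atp1b3*. A row of the same length at a mean of 21.6 FPKM would instead give a log2 difference of 1.21 (limma adjusted p = 5.66e-05). With that row *Atp1b3* would have a smaller p than 1671 of the 1672 compared genes of the sorted supplementary list, but it is not in the part of that list held here.

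*Atp1b2*, which encodes a beta subunit also known as an adhesion molecule on glia, was less abundant. It had 8.55, 10.3, 8.58, 5.73, 5.30 and 6.95 FPKM in wild-type and 7.28, 5.69, 7.41, 7.57 and 7.03 FPKM in P33T islets. The P33T values lay within the wild-type range, and the log2 difference of -0.08 with a standard error of 0.16 (limma adjusted p = 1) was smaller than its error. Its row was also chosen by length and level, so a small difference was favoured for *Atp1b2* too. The row would fit *Gpr158*, at a mean of 7.28 FPKM in P33T islets, only if all 6 wild-type read counts were even numbers.

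**Figure D3:**
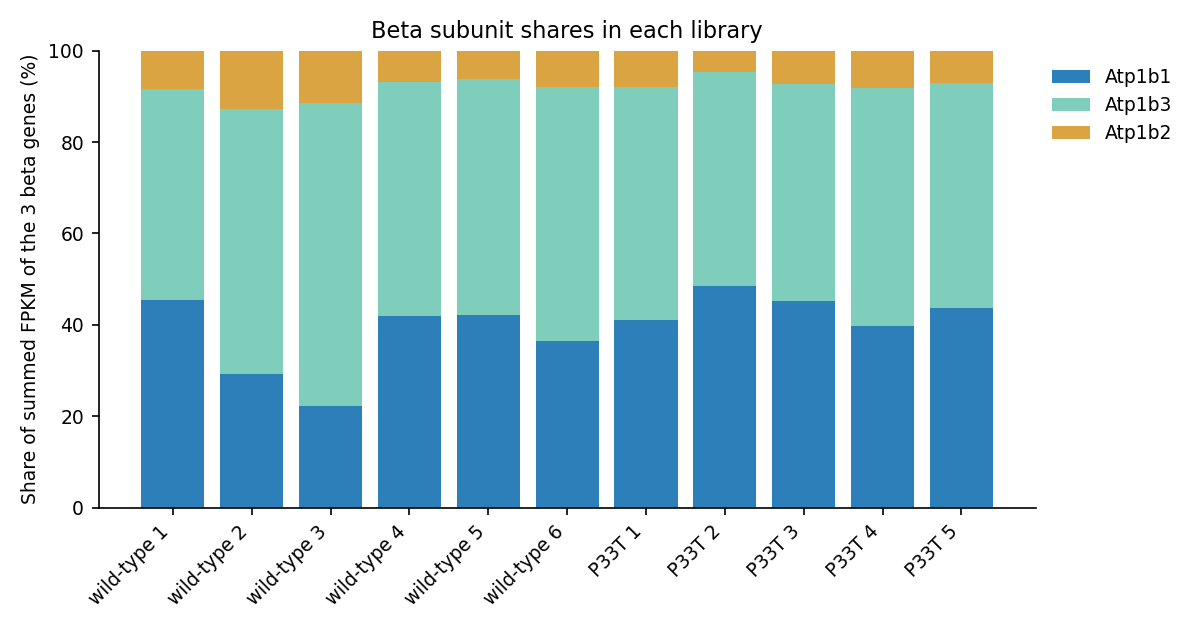
Share, in percent, of *Atp1b1*, *Atp1b3* and *Atp1b2* in the summed FPKM of the 3 beta subunit genes, 1 stacked bar for each of the 11 libraries. The *Atp1b1* part ranges from 22.2% in wild-type replicate 3 to 48.5% in P33T replicate 2, and the *Atp1b2* part from 4.75% to 12.9%.

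As shares of the summed FPKM of the 3 beta genes, *Atp1b1* made up 22.2% to 45.4% in wild-type and 39.8% to 48.5% in P33T libraries, and *Atp1b3* 46.3% to 66.5% and 46.8% to 52.1%. *Atp1b3* exceeded *Atp1b1* in 6 of 6 wild-type and 4 of 5 P33T libraries. The ratio of *Atp1b1* to *Atp1b3* was lowest, at 0.334, in wild-type replicate 3 and highest, at 1.04, in P33T replicate 2.

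The order of levels in P33T islets ran from *Fxyd6* (69.9 ± 6.51 FPKM) through *Atp1b3* (49.9 ± 3.58 FPKM), *Atp1b1* (44.7 ± 8.50 FPKM), *Atp1b2* (7.0 ± 0.755 FPKM), *Fxyd5* (2.96 ± 0.894 FPKM) and *Fxyd3* (1.42 ± 0.400 FPKM) to *Fxyd7* (0.337 ± 0.183 FPKM), *Fxyd1* (0.164 ± 0.0338 FPKM) and *Fxyd2* (0.0844 ± 0.0706 FPKM), each as mean ± SD of 5 libraries. *Fxyd6* exceeded *Atp1b3* in 5 of 5 P33T and 4 of 6 wild-type libraries. The neighbours *Atp1b3* and *Atp1b1*, *Fxyd5* and *Fxyd3*, *Fxyd7* and *Fxyd1*, and *Fxyd1* and *Fxyd2* overlapped in range. The order also depends on the gene length behind FPKM, which for *Fxyd6* was 4107 bases, whereas the median coding transcript of that gene in GENCODE vM21 has 1788 bases. For *Fxyd3* these lengths were 4850 and 439 bases and for *Fxyd5* 4192 and 803 bases. With the median coding transcript as the length, *Fxyd6* came to 161 FPKM, *Atp1b1* to 85.8 FPKM and *Atp1b3* to 59.8 FPKM, while *Fxyd3*, *Fxyd5* and *Atp1b2* drew level at 15.6, 15.4 and 14.9 FPKM. *Fxyd6* was the highest of the 9 genes with either length.

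**Figure D4:**
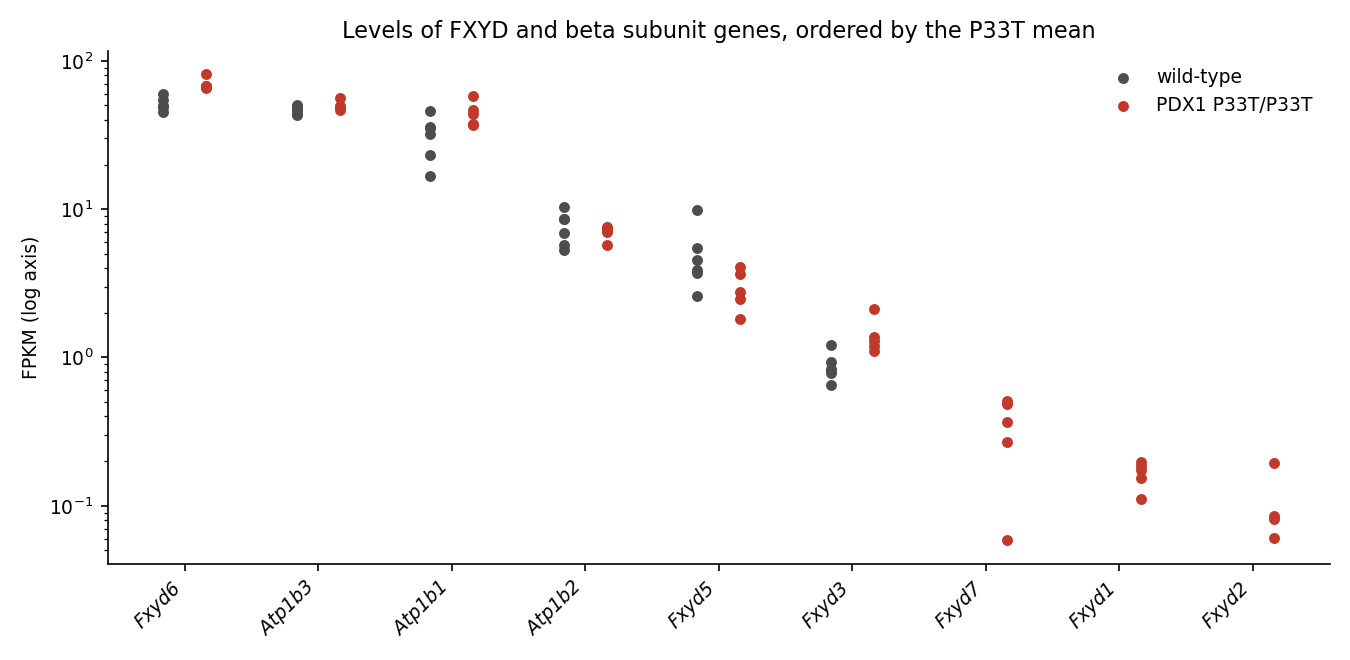
FPKM on a log axis for the 9 members, ordered by their mean in P33T islets, with 1 point per library (grey wild-type, red P33T). *Fxyd7*, *Fxyd1* and *Fxyd2* have P33T points only, and the *Fxyd2* value of 0 in P33T replicate 2 cannot be drawn on this axis.

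A gene was called when its adjusted p was at most 0.05 and its fold change at least 1.5. By this rule 4 of the 4727 genes compared (0.0846%) were called between the genotypes, 0.0423% in each direction, and 0 of the 5 tested members were among them. For *Atp1b2* and *Atp1b3* this was favoured by the choice of row. Before adjustment, *Fxyd3*, *Fxyd5* and *Atp1b1*, 3 of these 5 members, had a p under 0.05 in limma, as had 34% of all genes compared and 87.1% of the genes that, like these 3, have their row from the list sorted by p. The same 3 were under it with voom on the recovered reads, whereas *Fxyd3* alone was without wild-type replicate 2 or without P33T replicate 2, 3 or 5, and with the replicate number as a block. Without P33T replicate 2 the unadjusted limma p was 0.120 for *Fxyd5* and 0.0846 for *Atp1b1*. With the alike P33T libraries averaged, the unadjusted limma p was 0.0591 for *Fxyd5* and 0.0552 for *Atp1b1*. The other genes of the pathway were read from a list of 24 that holds related proton pumps, pump-interacting proteins, sodium exchangers and cotransporters, and kinases and ligases that act on them. The table held 18 of these, and 6 had a wild-type row. Of the 6, 0 were called higher and 0 lower, 2 had estimates above 0 and 4 below, and their median log2 difference was -0.25 beside -0.06 over all genes compared.

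The pathway genes of this list with the smallest p were *Ppp1r1a*, *Slc4a7* and *Sgk1*. *Ppp1r1a* and *Sgk1* have their wild-type rows from the supplementary list sorted by p, which favours a difference. *Slc4a7* and the other compared genes of the list have theirs by length and level, which limits a difference. The counts, the median and this order by p were shaped by both. *Ppp1r1a*, an inhibitor of protein phosphatase and an abundant beta cell gene, averaged 404 ± 118 FPKM over the 6 wild-type and 288 ± 26.1 FPKM over the 5 P33T libraries (mean ± SD), a log2 difference of -0.45 with a standard error of 0.18 (limma adjusted p = 0.508). *Slc4a7*, a sodium bicarbonate cotransporter, averaged 4.11 ± 1.33 and 5.67 ± 1.60 FPKM (SD, n = 6 and n = 5), a difference of 0.47 with a standard error of 0.22 (limma adjusted p = 0.634). *Sgk1*, a hormone-induced kinase that raises sodium transport, averaged 10.8 ± 3.93 and 7.63 ± 0.704 FPKM (SD, n = 6 and n = 5), a difference of -0.42 with a standard error of 0.20 (limma adjusted p = 0.642). Of the pathway genes with P33T values only, *Prkaca*, the catalytic subunit of protein kinase A that phosphorylates phospholemman, had the highest mean, at 52.9 ± 5.10 FPKM (SD, n = 5). The proton pump gene *Atp4a* had 2.38 ± 0.340 FPKM and the sodium calcium exchanger genes *Slc8a1* and *Slc8a2* had 2.06 ± 0.150 and 1.10 ± 0.144 FPKM (SD, n = 5).

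**Figure D5:**
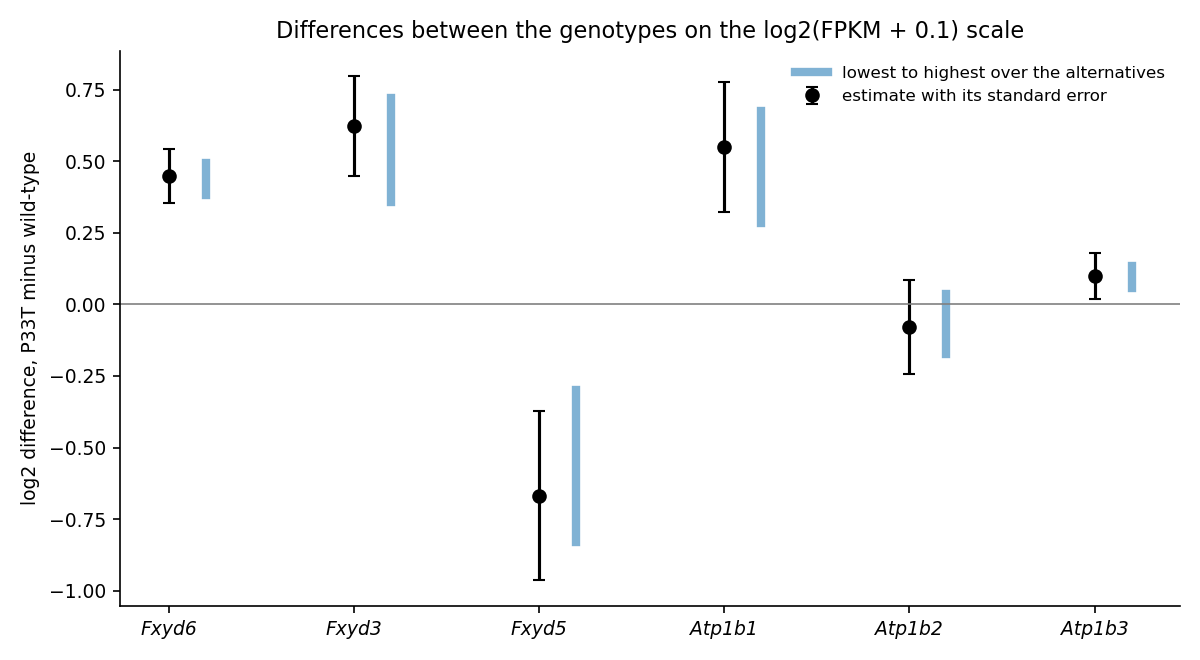
Difference between P33T and wild-type islets on the log2(FPKM + 0.1) scale for the 6 members with wild-type values. *Fxyd6* was chosen by this contrast, so its point and bar are a description. Black points with bars are the limma estimate and its standard error, and the blue line beside each runs from the lowest to the highest estimate over the alternative settings, the other candidate row of *Atp1b3* left out, and crosses 0 for *Atp1b2*, which ranges from -0.17 to 0.04.

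Genes that varied like *Fxyd6* within the genotypes were sought among 3539 genes with a mean of at least 1 FPKM, by Pearson's r of the deviations from the group means over the 11 libraries. Among the 5 highest were *Alg12*, a mannosyltransferase of N-glycan assembly (r = 0.922), *Otulinl*, a relative of the deubiquitinase gene *Otulin* (r = 0.914), *Grpel2*, a mitochondrial cochaperone (r = 0.899), and *Cd36*, a fatty acid transporter (r = 0.897). Without P33T replicate 2 and wild-type replicate 2, in which *Fxyd6* deviated most, these values were 0.708 to 0.827 over 9 libraries, so they rest in part on those libraries. The other 5 members with wild-type values ranked between 1039 and 2518 of the 3539, with r from -0.31 to 0.33. The libraries differed in depth and in the sums of cell type markers, and the part of this in the values of r was not tested. *Alg12*, *Otulinl* and *Cd36* have their wild-type row by length and level. The values of r are a description of genes chosen as the highest of many.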

How the data were processed

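RNA of whole islets was sequenced in 6 wild-type and 5 P33T libraries. Per the submitters' processing notes, reads were trimmed with fastp 0.23.1, aligned with HISAT2 2.0.5 and counted with featureCounts 1.5.0-p3, and the notes also name GRCm39 as the build and DESeq2 1.20.0 among the tools. The authors deposited FPKM per gene ID and library, and, per the methods, required presence in 80% of replicates within a condition. The methods name unstranded and strand-specific kits without saying which was used, so overlapping genes are uncertain. The deposited FPKM were turned back into whole reads, which gave each gene's length and each library's reads. Wild-type rows were assigned to genes by the reads in the study's supplementary table (1711 genes), or by length and level (3455 genes), where both genotypes had to hold 100 reads or more, the row had to pass the 80% presence rule, the 2 means could differ by up to 4-fold and any competing row of equal length had to lie more than 16-fold away. This put all 402 genes that could be checked on the right row. Of 19329 gene IDs, 4764 (24.6%) had a wild-type row in this way, and *Atp1b2* and *Atp1b3* were added by a second look. That look took the free row of equal length nearest in level to the P33T mean.

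Genotypes were compared with limma 3.58.1 (R 4.3.3, trend and robust options) on log2(FPKM + 0.1), which understates changes of low genes, over 4727 genes, leaving out 39 genes listed at 0 in P33T islets. Benjamini-Hochberg adjustment ran over all 19329 IDs with unplaced genes taken as unchanged. The comparison was two-sided and without covariates. Calls needed an adjusted p up to 0.05 together with a 1.5-fold change or more. The fit was tested on simulated reads of independent libraries. They held no differences in cell makeup and no choice of rows, so that test does not cover these. P-values measure the spread between libraries. Python 3.11.15, numpy 2.4.6, pandas 2.3.3, scipy 1.17.1 and matplotlib 3.10.9 made the tables and plots. Gene order and transcript lengths come from GENCODE vM21 on GRCm38. The members, the pathway list and the marker lists were chosen with earlier results of these data known. Named were the members, the 3 pathway genes with the smallest p (none being called), genes among the 5 most like *Fxyd6*, markers that moved with a member, and *Pdx1*, *Ins1*, *Ins2*, *Gcg* and *Sst*. *Prkaca*, *Atp4a*, *Slc8a1*, *Slc8a2*, *Lgi4*, *Nme7* and *Gpr158* were named after their values were seen. Marker sums of the other lists were as follows, in wild-type and P33T islets. Beta cell markers summed to 200621 to 281531 and 236326 to 334242 FPKM, alpha cell markers to 4707 to 11198 and 9025 to 11986, delta cell markers to 4309 to 10589 and 5069 to 6693, PP cell markers to 9998 to 24082 and 6448 to 15504, Schwann cell markers to 0.802 to 4.32 and 0.311 to 0.771, and stromal markers to 1.46 to 27.1 and 1.92 to 3.23. Acinar and ductal markers, measured in P33T islets only, summed to 3.29 to 56.1 and 68.8 to 82.1 FPKM. Some genes of these lists are not reported here. The alternatives were other pseudocounts, a filter on low values, median centring, limma without its options, voom on the recovered reads, each library left out, the replicate number as a block, other limits of the row search, and those added after the data were seen.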

Additional observations from a re-analysis of the deposited data

Results flagged for a closer look

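P33T replicate 2 stood far from the other 4 P33T libraries in 4 of the 9 genes examined, with a gap to the nearest library that took up most of the range of the group. *Fxyd6* had 81.4 FPKM there against 65.5 to 68.1 FPKM in the others, *Fxyd3* had 2.11 against 1.11 to 1.36 FPKM, and *Atp1b3* had 56.1 against 46.7 to 49.3 FPKM. *Atp1b2* was low there at 5.69 against 7.03 to 7.57 FPKM. Of 15 groups of values examined in this way 4 were flagged, all in the same library, where chance flags about 1 in 20. The gaps were 0.836, 0.747, 0.725 and 0.712 of the range in the order given. This library also had the highest summed level of the beta cell markers, 334242 FPKM against 236326 to 290677 FPKM in the other P33T libraries, and of the acinar markers, 56.1 against 3.29 to 9.80 FPKM, and the lowest of the endothelial markers, 24.5 against 38.9 to 57.7 FPKM. Their part in the flagged values was not tested. These genes share the library, so the 4 results are not independent.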

How the results depend on the processing

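The direction of the difference was the same under every alternative run for *Fxyd6*, *Fxyd3*, *Fxyd5*, *Atp1b1* and *Atp1b3*, and none of those tested crossed the threshold except *Atp1b3* with the other candidate row (1.21). *Fxyd6* was picked by this contrast and its groups did not overlap, so leaving libraries out could not turn its direction. The row of *Atp1b3* was itself chosen by level. *Atp1b2* changed sign without both libraries that stand apart (0.035) and over the single libraries left out ranged from -0.17 to 0.02, turning without wild-type replicate 2. Over the single libraries left out the log2 differences ranged from 0.39 to 0.49 for *Fxyd6*, 0.48 to 0.71 for *Fxyd3*, -0.83 to -0.45 for *Fxyd5*, 0.38 to 0.68 for *Atp1b1* and 0.06 to 0.12 for *Atp1b3*. Genes called higher in P33T islets, 2 in all libraries, ranged from 1 to 3 and genes called lower from 2 to 5 over the libraries left out.

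The replicate numbers of the 2 genotypes did not pair the libraries, as the deviations of same-numbered libraries correlated from -0.60 to 0.11 by titles and from -0.60 to 0.12 by library names. With the replicate number as a block, 0 genes were called higher and 1 lower by titles, and 1 higher by library names. Calls higher were 1 with a pseudocount of 0.01 and with the filter at 1 FPKM, and 0 at an absolute log2 difference of 1.5 and with the alike P33T libraries averaged. Calls lower were 4 with voom and without both libraries that stand apart, and 1 with only genes placed by supplementary reads and with the alike libraries averaged. The cause was not tested. With the level limit of the row search at 2-fold or 8-fold in place of 4-fold, *Atp1b2* and *Atp1b3* kept the same rows, and the other candidate row of *Atp1b3* fell outside at 2-fold. The row nearest in level was taken at each limit, so this outcome was fixed in advance and says nothing about the choice.

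Rescaled to the usual total of TPM without the insulin genes, mean levels in P33T islets were 252 for *Fxyd6*, 160 for *Atp1b1*, 180 for *Atp1b3*, 25.6 for *Atp1b2*, 10.9 for *Fxyd5*, 5.02 for *Fxyd3*, 1.22 for *Fxyd7*, 0.596 for *Fxyd1* and 0.316 for *Fxyd2*. With the length of the median coding transcript they were 161, 85.8, 59.8, 14.9, 15.4 and 15.6 FPKM for *Fxyd6*, *Atp1b1*, *Atp1b3*, *Atp1b2*, *Fxyd5* and *Fxyd3*, and 0.668 and 0.520 FPKM for *Fxyd1* and *Fxyd2*. The alpha cell markers differed by -0.08 as a mean of log2 levels and by 0.32 as the log2 of their sum, in which *Gcg* dominates. Depth limits *Fxyd1*, *Fxyd2* and *Fxyd7*.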
